A study of Homo sapiens with 2 samples.

Results

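The regions described here are exons whose difference between 2 arrays lay a set margin or more from that of their gene. They are 59 probe sets, each covering roughly 1 exon of a named gene, whose difference between TUC338 knockdown and control HepG2 cells departed from the rest of their own gene. The members were chosen by measured values. A probe set was taken when its log2 difference, knockdown minus control, lay 0.9 or more above or below the median difference of its gene's probe sets, when its mean log2 level over both arrays was 8.5 or more, and when its gene had at least 6 probe sets annotated to that symbol alone. Of 45200 probe sets in the table, 42575 carried 1 gene symbol, 41119 of those belonged to genes with 6 or more, and 25178 also reached the level minimum. Among these 25178 eligible probe sets, 39 departed downward (0.155%) and 20 upward (0.0794%), 59 in either direction (0.234%). They belonged to 58 of 2371 genes (2.45%). Because the rule used this very contrast, these shares are descriptions, and no departure below was tested.

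HepG2 is a human hepatoma line that keeps many features of liver cells. One culture had been transfected with a locked nucleic acid (LNA), a chemically stabilised antisense oligonucleotide, against TUC338, a noncoding transcript that carries an ultraconserved element. The other had received a control LNA. Both were grown on collagen, and the series text says the knockdown was checked by experiment. Each condition was measured on 1 array, so no replicate check exists, and an SD below is the spread over probe sets of 1 gene on the same arrays. TUC338 itself had no named probe set.

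A gene can produce several RNAs. Transcription can begin at alternative promoters, which exchange the first exons. Splicing can include or skip an inner exon, and cleavage at alternative polyadenylation sites changes the last one. Such changes move 1 or a few exons and leave the rest of the gene where it was, and exon arrays were built to see this. A single exon can also stand apart when its probes bind another RNA, when a gene on the same stretch overlaps it, or when its signal is near background or near saturation. With probe positions not analysed here, these cases cannot be told apart for any one exon.

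The knockdown array was brighter in general, with a median intensity of 507 against 422, and the median log2 difference over eligible probe sets was 0.25. Measuring each exon against its own gene removes this offset where it is shared by the gene. The departures of eligible probe sets had an SD of 0.24, and the spread fell with brightness, from 0.28 at levels of 8.5 to 9 to 0.18 at levels of 11 or more. Marker levels given here are those of the brightest probe set of each gene. All 6 hepatocyte markers in the table were bright, from a log2 level of 12.35 for APOH to 14.31 for ALB on the control array. Of the fibroblast markers, COL1A1 and PDGFRB were in the table, at control levels of 9.62 and 8.69, and no listed endothelial or blood marker had a probe set there.

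**Figure D1:**
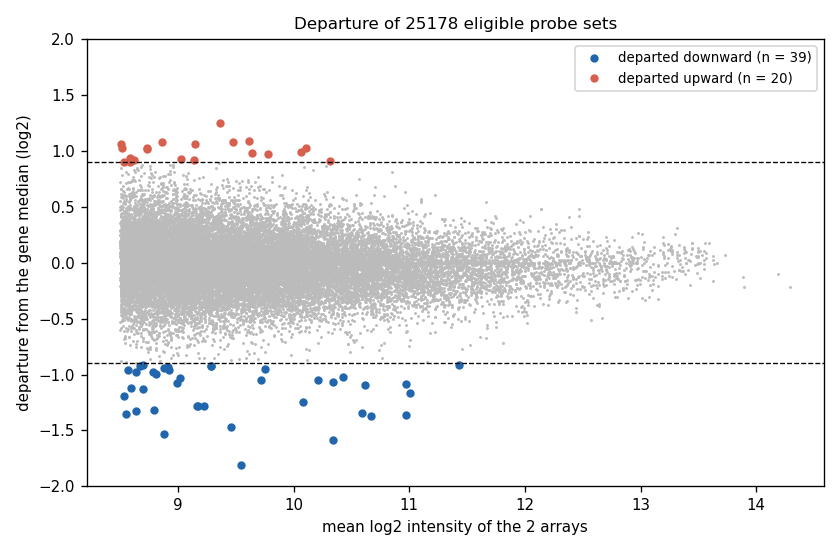
Departure of each of the 25178 eligible probe sets from the median difference of its gene (log2, knockdown minus control) against its mean log2 intensity over the 2 arrays, with dashed lines at 0.9 above and below. Blue points are the 39 that departed downward, to -1.81, and red points the 20 that departed upward, to 1.25.

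The 2 directions were unequal in number and in reach. Downward departures ran from -0.92 to -1.81 with a median of -1.09, and 26 of 39 were 2-fold or more. Upward ones ran from 0.90 to 1.25 with a median of 1.01, and 10 of 20 were 2-fold or more. In plain differences 38 of the 39 were lower on the knockdown array than on the control array, and all 20 were higher. The exception was SLC25A25, whose gene was so much higher that an exon 0.34 higher still lagged behind. Against the SD of the other probe sets of the same gene, downward departures were 2.47 to 15.9 times as large (median 3.93) and upward ones 2.15 to 7.65 times (median 3.61). Just inside the threshold lay FPGS (-0.92), NPIP (-0.92) and NR1H3 (-0.92) below, and MDN1 (0.9047), PCCA (0.9049) and INSIG2 (0.91) above. Just outside lay MIER1 (-0.8989), MRPS27 (-0.8956) and KIZ (-0.89) below, and SEC31A (0.8968), IDE (0.88) and OGT (0.88) above.

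**Figure D2:**
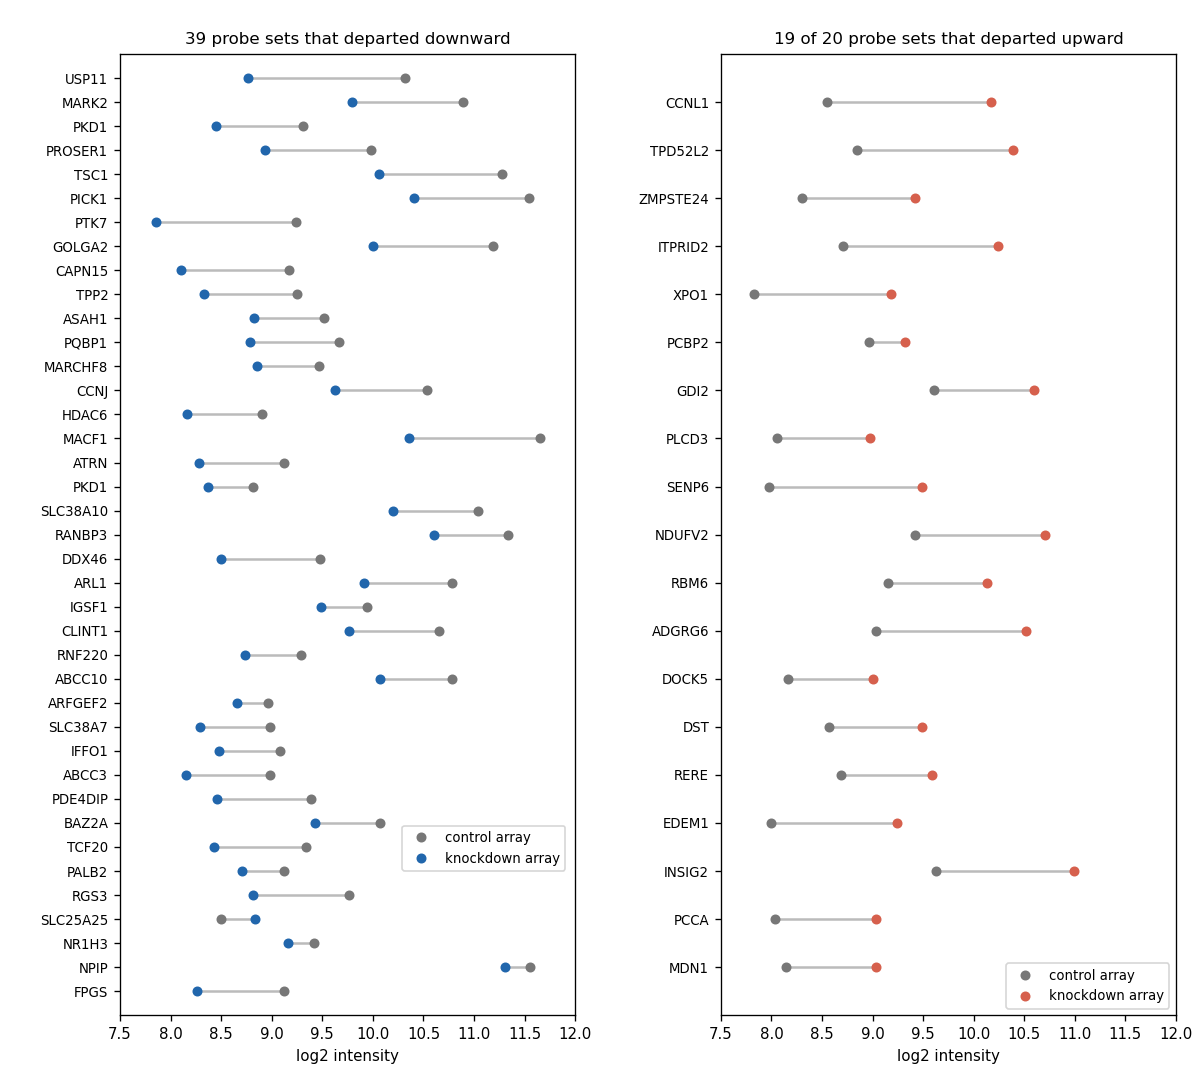
Log2 intensity of the 39 downward and 19 of the 20 upward probe sets on the control array (grey) and the knockdown array (blue or red), ordered from the largest departure at the top. In the left panel 38 of 39 knockdown points lie left of their control point, SLC25A25 being the exception, and in the right panel all 19 drawn lie to the right. PKD1 appears in 2 rows because 2 of its probe sets departed.

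Many of the downward members shared a place in the gene, which the rule did not use. The ID numbers of this array run along the chromosome, one strand after the other. Genes ordered by their IDs followed RefSeq gene order with a rank correlation of 0.99 or more in 34 of 44 chromosome strands, the lowest being 0.78. The last ID of plus-strand genes and the first ID of minus-strand genes had median departures of -0.0396 and -0.0397, while the opposite ends were at 0. These shifts were small beside SDs of 0.29 to 0.35 at the ends. They come from the departures the rule used, so they do not establish the order inside genes. Order inside a gene was therefore taken from the IDs as an assumption. Where RefSeq gave the strand, for 2372 of 2792 genes, the outermost probe set on the transcription-start side was named in this way. It is the first or last exon in this table, which need not hold every exon of a gene, and this look at position was chosen after the data were seen.

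Of the 35 downward members with a known strand, 13 were the outermost probe set on the start side (37.1%). Among all 21551 eligible probe sets with a strand, 882 held that place (4.09%). A further 4 of the 35 were outermost on the end side (11.4%, against 4.06% of eligible probe sets). Of the 18 upward members with a strand, 2 were outermost on the start side and 2 on the end side (11.1% each), and 14 lay inside the gene (77.8%, against 91.8% of eligible probe sets). Read the other way, 13 of the 882 start-side probe sets departed downward (1.47%) and 2 upward (0.227%). Of 23121 inner ones, 20 departed downward (0.0865%) and 16 upward (0.0692%). Inner ones here and below include those of genes without a known strand. With a known strand there were 19794 inner ones, of which 18 departed downward and 14 upward. Start-side probe sets spread more as a class, with an SD of 0.32 against 0.24 for inner ones, while their median departure was close to that of the others (-0.0166 against -0.0051). Below the level minimum, in probe sets the rule left out, 20 of 1208 start-side probe sets departed downward (1.66%) and 4 upward (0.331%), against 29 (0.221%) and 45 (0.343%) of 13114 inner ones. The start side thus held a larger share of downward departures among dim exons too, though not of upward ones. End-side probe sets also departed downward more often than inner ones, 4 of 875 eligible ones (0.457%) and 10 of 1215 dim ones (0.823%). A larger downward share than inside the gene was thus not particular to the start side.

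**Figure D3:**
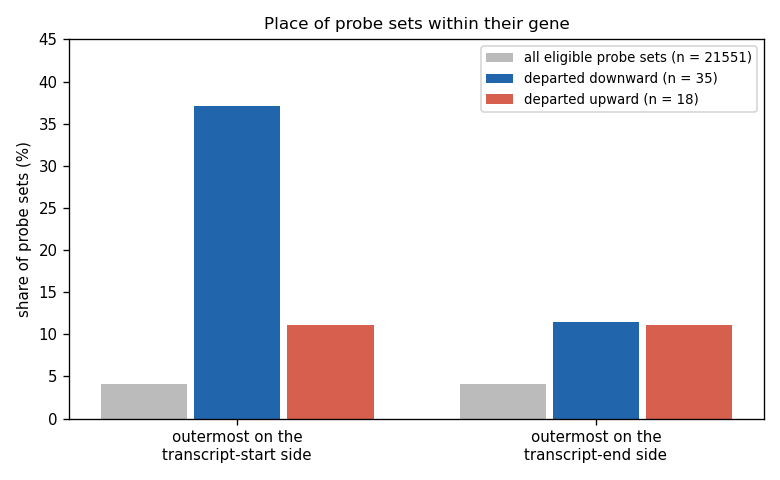
Share of probe sets (%) that are the outermost of their gene on the transcript-start side or the transcript-end side, for all eligible probe sets and for those that departed downward or upward, counted where the strand is known. The downward group reaches 37.1% at the start side, where all eligible probe sets are at 4.09%.

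The starts of 6 of these 13 genes are shown as examples, 4 rich in CG pairs and 2 without any. Each line gives the 120 bases just before the one start that the RefSeq table lists for the gene (GRCh38.p14), read 5′ to 3′ on the gene's strand, with every CG pair in capitals. CG-rich starts are typical of promoters active in many tissues. The probe sets themselves were not placed on this build, so it is not known how near each lies to these bases.
USP11, chrX:47232889-47233008, plus strand: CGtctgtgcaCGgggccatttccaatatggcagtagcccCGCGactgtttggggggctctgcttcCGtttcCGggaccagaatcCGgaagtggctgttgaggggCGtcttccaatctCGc
PQBP1, chrX:48897810-48897929, plus strand: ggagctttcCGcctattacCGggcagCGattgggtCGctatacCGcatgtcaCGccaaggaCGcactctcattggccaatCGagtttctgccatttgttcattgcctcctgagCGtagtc
HDAC6, chrX:48801947-48802066, plus strand: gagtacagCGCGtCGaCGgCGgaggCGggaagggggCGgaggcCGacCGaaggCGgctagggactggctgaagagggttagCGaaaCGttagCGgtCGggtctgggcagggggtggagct
TSC1, chr9:132944617-132944736, minus strand: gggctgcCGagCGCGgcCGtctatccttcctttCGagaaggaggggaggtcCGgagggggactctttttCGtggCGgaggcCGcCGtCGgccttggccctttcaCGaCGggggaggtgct
MACF1, chr1:39084047-39084166, plus strand: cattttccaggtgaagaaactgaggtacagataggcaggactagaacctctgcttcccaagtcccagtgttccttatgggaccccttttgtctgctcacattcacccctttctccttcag
NR1H3, chr11:47248180-47248299, plus strand: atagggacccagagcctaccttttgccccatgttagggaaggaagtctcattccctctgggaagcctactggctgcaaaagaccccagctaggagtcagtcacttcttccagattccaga

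USP11 has 9 CG pairs in its stretch, PQBP1 9, HDAC6 14 and TSC1 13, while MACF1 and NR1H3 have 0, and both of these genes are known to use several promoters. Over the whole 300-base windows, from 250 bases before to 50 after the start, the 13 genes had a median GC content of 60.7% (range 45.3% to 75.7%). The 882 genes with an eligible start-side probe set had one of 66.3%. The GC box GGGCGG, searched on both strands, was in 8 of the 13 windows and in 73.4% of the 882. In 4 groups of rising window GC, from the lowest, the downward start-side members numbered 6 of 222, 3 of 224, 1 of 221 and 3 of 215.

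USP11, a deubiquitinating enzyme on the X chromosome, held the largest departure of all. Its first probe set (3976167) had a log2 level of 8.76 after knockdown and 10.32 in the control, or -1.55 as knockdown minus control. The other 19 probe sets of USP11 differed by -0.09 to 0.64, with a gene median of 0.26, so the first exon departed by -1.81, or 3.51-fold. On the control array this exon stood 0.95 above the gene's median level, and on the knockdown array it stood at -0.86 from that level.

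PQBP1, an RNA-binding protein of the splicing machinery that is mutated in X-linked intellectual disability, had the largest departure of the 59 relative to its own gene's spread. Its first probe set was at 8.79 after knockdown and 9.66 in the control. The 7 others were all higher on the knockdown array, by 0.27 to 0.49, with an SD of only 0.081. A departure of -1.28 is 15.9 times that SD. HDAC6, the cytoplasmic deacetylase of tubulin, lies near PQBP1 by ID, and its first of 30 probe sets was at 8.16 and 8.90 on the knockdown and control arrays, a departure of -1.19. The neighbouring HDAC6 probe set departed by -0.41, and another probe set of the gene by -0.88. IGSF1, an immunoglobulin-superfamily membrane protein and also X-linked, had 9.49 and 9.94 at its start-side probe set, a departure of -1.05. The X chromosome held 4 of the 59 members (6.78%, against 2.90% of eligible probe sets), all of them start-side and downward. Chromosome 9 held 5 (8.47%, against 3.83%), also all downward, and no chromosome was tested.

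TSC1 encodes hamartin, which with tuberin restrains the growth kinase complex mTORC1. The start-side probe set of TSC1 (3228413) was the brightest of its 25, at 10.06 after knockdown and 11.27 in the control. The difference of -1.21 lay -1.37 from the gene median of 0.16, and of the other 24 probe sets 20 were higher on the knockdown array. The adjacent probe set differed by 0.46, so the low value did not extend to it. Of the 18 listed genes of mTORC1 and growth signalling in the table, 15 had eligible probe sets, and TSC1 alone held a member.

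MACF1, a giant spectraplakin that links actin to microtubules, departed at the first of its 106 probe sets. That exon was bright, at 10.35 after knockdown and 11.65 in the control, a departure of -1.16 from a gene median of -0.14. In the other 105 probe sets the difference ran from -0.63 to 0.62. The SD of those 105 was 0.28.

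The remaining start-side members came from genes of varied function. CCNJ, a cyclin, had 9.63 on the knockdown and 10.54 on the control array at its first probe set, a departure of -1.25. For TPP2, a large cytosolic peptidase, the values were 8.33 and 9.25 in the same order, and the departure from the 31-probe-set gene was -1.32. CAPN15, a calpain-family protease listed under its older symbol SOLH, had 8.10 and 9.17 (-1.32), with the next probe set at -0.54. In all 3 genes the first exon was higher on the control array, while the gene median was higher on the knockdown array.

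ATRN, a membrane protein of pigmentation and myelin, departed by -1.13 at the first of 33 probe sets (8.28 knockdown, 9.13 control). Of the 32 others of ATRN, 27 were higher on the knockdown array. The 5 lower ones lay among probe sets 27 to 33, and those at 29, 30 and 33 departed by -0.63, -0.57 and -0.76. ARL1, a GTPase of the trans-Golgi network, departed by -1.06 at the last of 8, which on its strand is the start (9.91 and 10.78). SLC38A7, a lysosomal glutamine exporter, departed by -0.98 (8.30 and 8.98). None of the 3 had a neighbouring probe set past -0.45.

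Outermost exons whose strand was not matched were seen in ASAH1, the lysosomal acid ceramidase, and in IFFO1, an intermediate-filament-like protein. ASAH1 departed by -1.28 at the last of 12 probe sets (8.83 knockdown, 9.52 control), while its 11 others were all higher on the knockdown array, by 0.26 to 1.11. IFFO1 departed by -0.97 at the last of 7, the one probe set of that gene at or above the level minimum.

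In a few genes the departure covered more than 1 exon. RNF220, a ubiquitin ligase, had its first 3 probe sets at differences of -0.29, -0.55 and -0.34, and probe sets 4 and 5 at 0.58 and 0.57. The second of them is the member, at 8.74 on the knockdown and 9.29 on the control array, and the ones on either side of it departed by -0.77 and -0.83. So a block on the start side was lower while the gene's median probe set was 0.49 higher.

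NR1H3 encodes LXRα, the oxysterol receptor that drives cholesterol efflux and lipogenic genes in liver. Its first probe set stood at 9.16 on the knockdown and 9.42 on the control array, and the second at 8.18 on both. Probe sets 3 to 9 of NR1H3 were 0.44 to 0.80 higher on the knockdown array. The departures were -0.92 and -0.66, and the first exons thus did not share the higher level of the gene body.

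Such blocks were the exception. Of 59 neighbours of downward members within the same gene, 7 departed downward by 0.45 or more (11.9%), where 3.37% of the neighbours of all eligible probe sets did. Of 36 neighbours of upward members, 5 departed upward by as much (13.9%, against 4.71%). These neighbours share gene and arrays with the members. Most members thus had no neighbour that departed this far in the same direction. Measured from the mean of the neighbouring IDs in place of the gene median, 38 of the 59 were still past the threshold, and 10 departures were smaller by over 1.5 times. Where neighbours departed too, little was left, with -0.23 for RNF220, -0.26 for NR1H3, 0.28 for DST and 0.39 for ZMPSTE24. The other such values were -0.77 for HDAC6, -0.64 for IGSF1, -0.79 for CAPN15, -0.58 for PALB2, -0.58 for PDE4DIP and 0.57 for INSIG2.

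**Figure D4:**
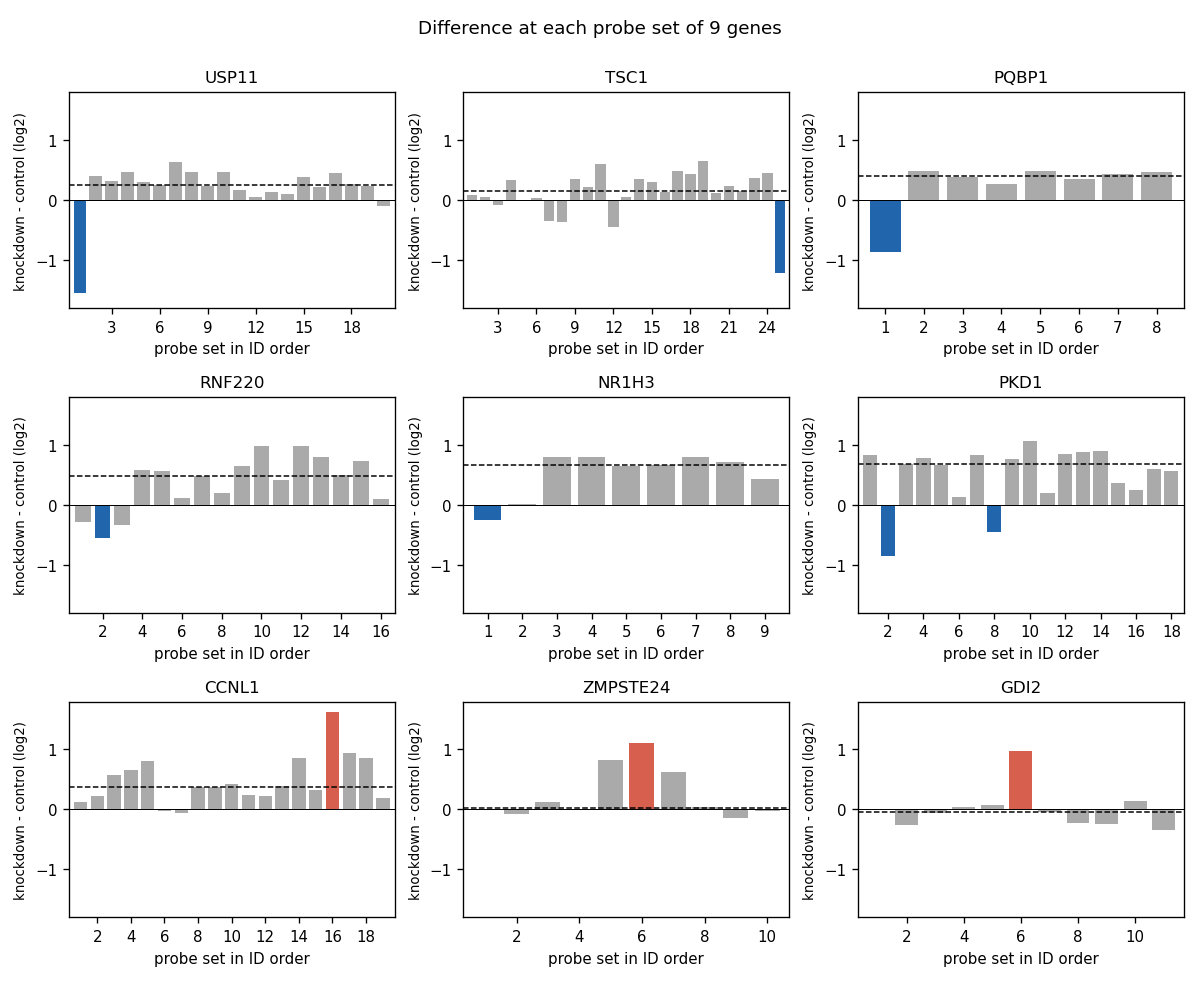
Difference between knockdown and control (log2) at every probe set of 9 genes in ID order, with members in blue or red, other probe sets in grey and the gene median as a dashed line. USP11 and PQBP1 depart at the first probe set and TSC1 at the last, RNF220 and NR1H3 over the first few, PKD1 at 2 separate places, and CCNL1, ZMPSTE24 and GDI2 inside the gene.

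Exons on the end side departed downward in MARK2, CLINT1, ARFGEF2 and PALB2. MARK2 is a polarity kinase that phosphorylates microtubule-associated proteins and a gene with well-known alternative exons. At the last of its 17 probe sets the level was 9.79 after knockdown and 10.89 in the control, while all 16 others were higher on the knockdown array, by 0.23 to 0.94. The departure of -1.58 was second to that of USP11. CLINT1, a clathrin adaptor, had 9.76 and 10.66 at its brightest probe set and departed by -1.05. The probe set at the other end of CLINT1 departed upward, by 0.84. ARFGEF2, an exchange factor for Golgi GTPases, had all 43 other probe sets higher on the knockdown array, by 0.29 to 1.52, but 8.65 against 8.96 at the last. By mean level this exon ranked 42 of 44 in its gene, so it was among the dimmest exons of a bright gene. PALB2, the partner of BRCA2 in DNA repair, departed by -0.93 there (8.71 and 9.12).

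A second feature of the downward exons was that many stood well above their gene. On the control array 33 of 39 lay above the gene's median level, by a median of 1.26 over all 39, whereas 68.6% of eligible probe sets did so. On the knockdown array 20 of 39 did, with a median of 0.11. Both levels enter the difference that the rule used, so these numbers describe the choice as well as the exons. The brightest probe set of the gene was the member in 11 of 39 cases (28.2%, against 9.42% of eligible probe sets) and in none of the 20 upward ones.

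PICK1, a PDZ and BAR domain protein of receptor trafficking, was the extreme case. Its member (3945209) was at 10.41 on the knockdown and 11.54 on the control array, 2.75 and 4.05 above the gene median on each. No other probe set of PICK1 reached the level minimum. The 7 others differed by 0.0099 to 0.55, against -1.13 here.

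Another 5 members stood at least 2 log2 units above their gene on the control array. GOLGA2, the cis-Golgi matrix protein GM130, was at 9.997 and 11.19 on the knockdown and control arrays at probe set 4 of 19, a departure of -1.34, and one neighbour departed by -0.58. ABCC10, a multidrug-resistance transporter, was at 10.07 and 10.78 (-1.02). SLC38A10, of the amino acid transporter family, was at 10.20 and 11.04 (-1.10). MARK2 and TSC1, described above, were the others. For all 6 genes the gene median was higher on the knockdown array and the bright exon was lower there.

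The rest of the downward members lay inside their genes. PROSER1, listed as C13orf23, had 8.93 on the knockdown and 9.98 on the control array at probe set 11 of 17, a departure of -1.47, while the probe set before it departed upward by 0.62. PTK7, a Wnt co-receptor with an inactive kinase domain, had 7.86 and 9.24 (-1.35) between neighbours at 0.45 and 0.21. Opposite values side by side within 1 gene were also seen in MARCHF8, a ubiquitin ligase of membrane proteins, where the second probe set departed by -1.28 (8.85 and 9.47) and the first by 0.65.

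RANBP3, a cofactor of nuclear export, was lower at 1 of its 16 probe sets (10.60 knockdown, 11.34 control, departure -1.09). The 15 others were all higher on the knockdown array, by 0.11 to 0.73. SLC25A25, a mitochondrial ATP-Mg carrier, showed the largest gene median of the set, 1.26, with 8 probe sets between 1.11 and 1.39 and the member at 8.84 against 8.498. It was the only probe set of SLC25A25 that reached the level minimum. DDX46, a helicase of the spliceosome, departed by -1.07 (8.497 and 9.48). The organic anion transporter ABCC3, the chromatin remodelling factor BAZ2A, TCF20, the G-protein regulator RGS3 and FPGS departed by -0.96 to -0.92.

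PKD1, the polycystin-1 gene of polycystic kidney disease, was the one gene with 2 members. Its second probe set was at 8.45 on the knockdown and 9.30 on the control array (-1.53), and probe set 8 at 8.37 and 8.81 (-1.12). All 16 others were higher on the knockdown array, by 0.13 to 1.06. Near-identical partial copies of PKD1 lie on the same chromosome, so these exons may collect signal from several loci. The same holds for NPIP (-0.92), a duplicated family that the annotation names by its old symbol, and for PDE4DIP (-0.96). These 4 probe sets are given as uncertain.

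Of the upward members 16 of 20 were inner probe sets (80.0%), a smaller share than the 91.8% of eligible ones. On the control array 18 of 20 were below their gene's median level (90.0%, against 28.3% of eligible probe sets), a value that enters the difference the rule used. CCNL1, cyclin L1, which partners splicing-linked kinases, had the largest upward departure. Probe set 16 of 19 was at 10.18 on the knockdown and 8.55 on the control array, 3.09-fold higher, and departed by 1.25 from a gene median of 0.37. The probe set after it departed by 0.57 and the next by 0.49, while the one before was at -0.051.

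ZMPSTE24, the protease that matures lamin A, showed a block of 3. Probe sets 5, 6 and 7 of 10 were 0.82, 1.11 and 0.62 higher on the knockdown array, and probe sets 4 and 8 were at 0.0089 and 0.046. The middle one, the member, was at 9.42 against 8.31. DST, a spectraplakin related to MACF1, had its member at probe set 92 of 127 (9.49 and 8.56, departure 0.93). The probe set before it departed by 0.995 and one 4 places before by 0.90, both under the level minimum. That stretch of DST was thus higher while the gene median was near 0 (-0.0052). The largest departure of DST, 1.07, was at another probe set, which was also under the level minimum.

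GDI2, which recycles Rab GTPases, gave a single inner exon between flat neighbours. It was at 10.60 on the knockdown and 9.61 on the control array at probe set 6 of 11, and the 10 others differed by -0.34 to 0.14. On the control array the exon stood -1.13 from its gene's level, and on the knockdown array -0.024. NDUFV2, a subunit of respiratory complex I, departed by 0.996 (10.70 and 9.42), with an SD of 0.13 over its other 6. Both genes have processed copies elsewhere in the RefSeq table, GDI2P1, GDI2P2 and NDUFV2P1, and signal from those was not separated.

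TPD52L2, a tumour protein D52 family member, was at 10.39 and 8.84 on the knockdown and control arrays at the last of 9 probe sets, a departure of 1.09. Probe set 6 of TPD52L2, very dim at 4.49 and 5.38, departed the other way, by -1.35. INSIG2, which holds the sterol sensor complex in the endoplasmic reticulum, also departed at its end-side exon, by 0.91 (10.99 and 9.63), in a gene with every probe set higher on the knockdown array. PCCA, a subunit of propionyl-CoA carboxylase, departed by 0.90 at its start-side exon (9.03 and 8.04).

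XPO1, the main nuclear export receptor, was at 9.18 on the knockdown and 7.83 on the control array, -2.07 from its gene's level on the control array. By mean level this exon ranked 22 of 24 in its gene, so it was among the dimmest exons of a bright gene.

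SENP6, a SUMO protease, departed by 1.02 (9.48 and 7.97), and ITPRID2, listed as SSFA2, by 1.08 (10.24 and 8.71). PLCD3, a phospholipase C, departed by 1.03 (8.97 and 8.05) and the RNA-binding protein RBM6 by 0.98 (10.13 and 9.15). The adhesion receptor ADGRG6 was at 10.52 and 9.03, with a departure of 0.98 and the next probe set at 0.55. The last 4, DOCK5, RERE, EDEM1 and MDN1, departed by 0.90 to 0.94 in genes of 17 to 120 probe sets.

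PCBP2, the poly(rC)-binding protein whose gene hosts TUC338, entered the upward group from the opposite side. Its start-side probe set was at 9.32 on the knockdown and 8.97 on the control array, a difference of 0.36, where the 12 others were lower by -1.06 to -0.34. The departure of 1.06 thus came from a lower gene more than from a higher exon. MBNL1, a splicing regulator, held no member: its largest departure, -1.07, was at a probe set below the level minimum.

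Functional lists placed some of the members in pathways, and most members were on none of the lists given here. The Golgi and membrane traffic list had 60 genes with eligible probe sets, of which GOLGA2, PICK1 and ARFGEF2 departed downward and none upward. It leaves out ARL1 and CLINT1, downward members with related functions, and GDI2, an upward one. The solute carriers had 46, with 3 downward (SLC38A10, SLC38A7 and SLC25A25), and the ABC transporters 13, with 2 downward (ABCC10 and ABCC3). Ubiquitin ligases and deubiquitinases had 62, with 2 downward (USP11 and RNF220). That list was drawn by symbol prefix and leaves out MARCHF8, a further downward member with this function. The median departure over the eligible probe sets of these 4 lists lay between -0.0232 and -0.0069, beside -0.0072 over all eligible probe sets.

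Genes with textbook alternative exons or ends numbered 42 with eligible probe sets, and 3 of them held a member, MACF1 and MARK2 downward and DST upward. The cytoskeleton and adhesion list, with 49, held DOCK5 upward beside MACF1 and DST. The regulators that choose exons and the machinery that joins them were also counted. Of 28 splicing regulators RBM6 and PCBP2 departed upward, of 21 core spliceosome genes DDX46 departed downward, and none did among 8 genes of mRNA end formation and 18 of nonsense-mediated decay and the exosome. Chromatin genes held HDAC6 among 50, and zinc finger genes none among 35. The chromatin list leaves out BAZ2A, a downward member. The splicing lists leave out PQBP1, downward, and CCNL1, upward. The list counts are small and were not tested. They stand beside 2.45% of all genes with eligible probe sets, a share that takes no account of probe sets per gene. The ABC transporters, with 2 of 13 genes, lay furthest above it.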

How the data were processed

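The authors deposited 1 table of natural log intensities for 45200 probe sets on 2 arrays. No source used here names the normalization, the summary method or the genome build. The scale was settled from the numbers, because exponentials of the values below the brightest range piled up on multiples of 0.5 plus a fixed residue (1154 of 41367 knockdown values in the fullest bin, mean 82.7 per bin), and values were divided by the natural log of 2. The deposited probe annotation gave 42575 probe sets 1 symbol, 1055 several and 1570 none. RefSeq updated 331 of 2795 symbols. Departures were computed from gene medians, with no further normalization and no test, in Python 3.11.15 with pandas 2.3.3, and the steps were tested on simulated data. Members and lists were chosen with earlier results of these data known. The values of 1 upward member, though it is counted, and 1 gene list are not reported here. The text names those with the largest departures, the gene with 2 members, those on the lists and those near the threshold. TSC1, GOLGA2, PICK1, SLC38A10, ABCC10, MBNL1 and PCBP2 were to be named whatever their values. The rest are given more briefly. Strands and sequences came from RefSeq (GRCh38.p14). Alternatives to each choice are in the closing section.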

Additional observations from a re-analysis of the deposited data

How the results depend on the processing

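At a threshold of 0.8 there were 46 upward, 68 downward and 23 downward start-side probe sets, at 1.0 there were 10 upward, and at 1.2 there were 1, 14 and 6. With no level minimum they were 72, 103 and 33, with a minimum of 9.5 they were 6, 15 and 6, and with both arrays at or above 8.5 they were 11, 24 and 8. In genes with 10 or more probe sets 8 downward members were start-side. Against the gene mean 12 departed upward. Against the mean of the neighbouring IDs the counts were 50, 98 and 23, with 18 genes holding 2 or more. Read as log2 values, with the same level minimum, the table gave 0 in each count and a median absolute departure of 0.73 for the 59 members (1.05 as natural logs). Counts otherwise stayed within 1.5 times. The start-side share of downward members ran from 27.1% (neighbouring IDs) to 46.2% (threshold of 1.2) in the settings that gave any. Quantile normalization kept 51 of the 59, lowess 50, the gene mean 40, an offset of 50 intensity units 39 and the mean of the neighbouring IDs 38. Measured from the probe sets at the level minimum, CAPN15 departed by -0.79, PDE4DIP by -0.58 and RGS3 by -0.60. In no setting did a member change sign. Level minimum aside, 7 members departed by over 0.9 in each setting that changed values, all downward: USP11, PROSER1, TSC1, MARK2, GOLGA2, TPP2 and PKD1 (its second probe set). PTK7 and PICK1 did so in the settings that gave them a value, which 1 setting each did not. Leaving out PKD1, NPIP and PDE4DIP, an alternative added after seeing the data, left 35 downward. No paired analysis was possible because each condition had 1 array. Depth is not defined for arrays. Precision is limited by the single array per condition.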

Other observations

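Members of different genes were also close to one another by ID number in 3 cases. How often eligible probe sets lie this close was not counted, and 39 of the 59 members were downward in any case. FPGS, which retains folates in cells, and SLC25A25 had members 84 ID numbers apart, HDAC6 and PQBP1 79 apart, and PTK7 and ABCC10 297 apart, all of them downward.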
